A study of Mus musculus with 6 samples.

Results

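The AP-2 transcription factors were followed in embryonic mouse skin in which the gene of 1 family member, Tcfap2c, was mutated. Tcfap2c is the older name of Tfap2c. The members are the probe sets, groups of short array probes that report 1 transcript signal, which the platform annotation assigns to exactly 1 gene symbol among Tfap2a, Tfap2b, Tfap2c, Tfap2d and Tfap2e. There were 10 such probe sets among the 45101 on the array, of which 34958 carried a single symbol. Tfap2a and Tfap2c had 3 probe sets each, Tfap2b had 2, and Tfap2d and Tfap2e had 1 each.

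AP-2 proteins are transcription factors that bind DNA as homodimers or heterodimers through a shared carboxy-terminal region, at GC-rich sites of the form GCCNNNGGC. Their genes are active in surface ectoderm, neural crest and extra-embryonic lineages. In the epidermis AP-2 alpha (Tfap2a) and AP-2 gamma (Tfap2c) are known as the main members and as regulators of keratinocyte genes, while AP-2 beta (Tfap2b), AP-2 delta (Tfap2d) and AP-2 epsilon (Tfap2e) are best known from neural crest and kidney, from midbrain and retina, and from the olfactory bulb.

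Total RNA of skin at embryonic day 16.5 was hybridised to 1 one-colour Affymetrix array per sample, with 3 Tcfap2c mutant and 3 control samples. The labels give no allele, altered exon, Cre driver, strain or litter for either group, and they do not say whether animals were pooled, so p-values measure only the spread between these samples. Titles, source names and the series design set the controls apart, although a description field of the controls mentions the mutation too. Epidermis stands in the series title and skin in the sample labels: the summed signal of 9 keratinocyte markers was between 112192 and 160901, and that of 6 dermal fibroblast markers between 115290 and 132275, over the 6 samples.

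Mutant sample 1 was unlike the rest: its correlation to the 5 remaining arrays averaged 0.94, while those of the other samples averaged 0.961 to 0.97. The 6 markers of decidua and uterus summed to 49920 in that sample, against 612 to 832 in the other mutant samples and 440 to 539 in controls. Of 10 trophoblast genes 6 were matched on the array, and these summed to 719 to 1122 in mutant and 359 to 419 in control samples. Of these 6 genes 1 passed the filter, Elf5, which is also made in epidermis. Without it, a choice made after the values were seen, the sums were 399, 161 and 123 in mutant samples 1, 2 and 3 and 221, 87.6 and 226 in control samples 1, 2 and 3, and the groups overlapped. Tpbpa was at 53.2 to 197 in mutant and 7.32 to 12.98 in control samples. It did not pass the filter, and 3.3% of all probe sets tested were likewise higher in mutant samples without overlap. The placental proteases Cts7 and Ctsq reached at most 14.2 and 31.5, both in mutant sample 1. Mean signals in mutant and control samples were 42.6 and 67.1 for Hand1, 57.5 and 77.1 for Ascl2, and 14.4 and 19.4 for Ctsq. None of these markers was listed at 0. Trophoblast is a lineage in which Tfap2c is known to be active, and the part of these transcripts in the Tfap2c signal was not tested. On 1 Xist probe set the signal was 5520 to 6732 for mutant sample 1 and control samples 1 and 2, and at most 120 for the rest. The Y-linked gene Eif2s3y was at most 40.6 in the samples with high Xist and 1552 to 1915 in the rest. Mutant sample 1 and control samples 1 and 2 thus had the pattern of females, and the others that of males. Without mutant sample 1, mutant samples of male pattern only are set against controls of both patterns. The part of sex in any difference was not tested.

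Tfap2c, the mutated gene, had means in the mutant samples that were close to or slightly above those of controls on its 3 probe sets. The brightest, 1436392_s_at, read 1596, 1392 and 1247 for mutant samples 1, 2 and 3 and 1330, 1347 and 1193 for control samples 1, 2 and 3. Mutant sample 1 was the highest of the 6 and control sample 3 the lowest, and the groups overlapped. The group values were 1412 ± 175 and 1290 ± 85 (SD, n = 3 each). On the log2(signal + 24.5) scale used for all differences here, mutant minus control was 0.12 with a 95% interval from -0.20 to 0.45 in limma. On that scale the interval spans 86.8% to 137% of the control level.

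Probe set 1448977_at of Tfap2c gave 684, 727 and 621 in mutant samples 1, 2 and 3 and 678, 566 and 595 in control samples 1, 2 and 3. Mutant samples 1 and 2 lay above every control sample, and mutant sample 3 lay between controls. The difference was 0.14 (95% interval -0.20 to 0.48), which spans 87.0% to 140% of control.

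The third probe set of Tfap2c, 1418147_at, gave 461, 568 and 397 in mutant samples 1, 2 and 3 and 413, 575 and 425 in control samples 1, 2 and 3. Here sample 2 was the highest of each group, mutant sample 3 was the lowest of all, and the groups overlapped. The difference was 0.01 (95% interval -0.44 to 0.46), or 74.0% to 138% of control. With array weights, which favour mutant sample 3, the differences of 1436392_s_at and 1418147_at were -0.0051 and -0.14. Without mutant sample 1, the sample with the high decidua and uterus sum, the 3 probe sets of Tfap2c differed by 0.03, 0.13 and 0.03. Which exons the mutation removes or changes is not stated, and the probe sets therefore cannot serve as a check of the genotypes.

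The 3 Tfap2c probe sets were also set against each other within each array. Their ratio would change where an altered part of the transcript held some of them and not others. The probe sets were not placed on exons, so ratios that are alike in both groups cannot decide whether the transcript was altered. Probe set 1436392_s_at over 1418147_at gave log2 ratios of 1.74, 1.26 and 1.59 in mutant samples 1, 2 and 3 and 1.63, 1.19 and 1.44 in control samples 1, 2 and 3. The group means differed by 0.11 (exact two-sided permutation p 0.6). Probe set 1448977_at over 1418147_at differed by 0.13 (exact p 0.7), and 1436392_s_at over 1448977_at by -0.02 (exact p 0.8). With 3 samples against 3 the smallest p this test can give is 0.1.

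**Figure D1:**
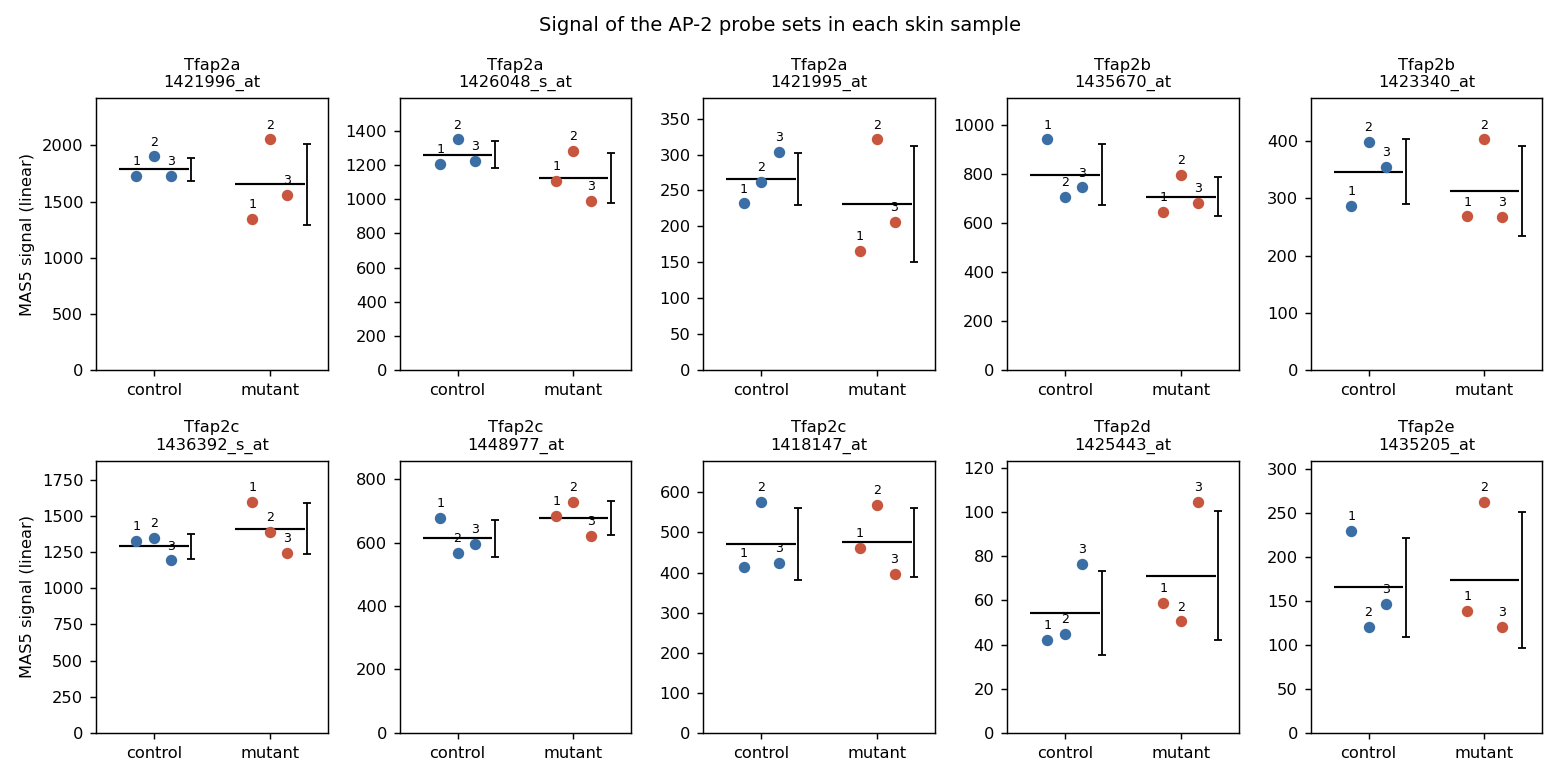
MAS5 signal on a linear axis for each of the 10 AP-2 probe sets, with points numbered by sample, horizontal lines at group means and bars of 1 SD (n = 3 per group). In every panel the control and mutant samples overlap, from Tfap2d at 42.0 to 104 to Tfap2a 1421996_at at 1346 to 2052.

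Tfap2a, the other member known to be prominent in epidermis, had a lower mean in the mutant samples on its 3 probe sets, by less than the spread within the mutant group. The brightest, 1421996_at, gave 1346, 2052 and 1557 in mutant samples 1, 2 and 3 and 1724, 1901 and 1731 in control samples 1, 2 and 3. Mutant samples 1 and 3 were the lowest of the 6 and mutant sample 2 the highest. The mutant values spread more, 1652 ± 362 against 1785 ± 100 in controls (SD, n = 3 each). The difference was -0.13 (95% interval -0.52 to 0.25), or 69.9% to 119% of control.

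Probe set 1426048_s_at of Tfap2a gave 1104, 1280 and 988 in mutant samples 1, 2 and 3 and 1206, 1349 and 1225 in control samples 1, 2 and 3. Mutant samples 1 and 3 again lay below all controls. The difference was -0.17 (95% interval -0.50 to 0.17). The dimmest probe set, 1421995_at, gave 166, 321 and 206 in mutant samples 1, 2 and 3 and 232, 262 and 304 in control samples 1, 2 and 3, with the same order among the mutant samples as on 1421996_at. Its difference was -0.22 (95% interval -0.79 to 0.34).

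Without mutant sample 1 the differences of Tfap2a were 0.0031 on 1421996_at, -0.16 on 1426048_s_at and -0.03 on 1421995_at. The differences of 1421996_at and 1421995_at thus became small without that sample, and 1421995_at stayed negative. Without mutant sample 2 the same differences were larger, at -0.30 and -0.46. With array weights, which gave mutant sample 1 the lowest weight, they were -0.15 and -0.25. For 1426048_s_at the difference was -0.08 without mutant sample 3 and -0.26 without mutant sample 2. The within-array ratios of the 3 probe sets differed between groups by 0.04, 0.09 and 0.06 on the log2 scale (exact permutation p of 1, 0.5 and 1, and adjusted p of 1 over the 7 ratios within genes). In RefSeq a long noncoding RNA gene, Gm26688, also named Tfap2a-as1, overlaps Tfap2a, and which transcript each probe set reads was not examined.

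Tfap2b, a member known from neural crest and kidney, also had lower means in the mutant samples that overlapped with controls. Probe set 1435670_at gave 644, 796 and 683 in mutant samples 1, 2 and 3 and 939, 705 and 744 in control samples 1, 2 and 3. Control sample 1 was the highest of all and the other 5 samples lay between 644 and 796. The difference was -0.16 (95% interval -0.54 to 0.22), or 68.9% to 116% of control. Without control sample 1 it was -0.04.

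Probe set 1423340_at of Tfap2b gave 268, 402 and 267 in mutant samples 1, 2 and 3 and 287, 398 and 354 in control samples 1, 2 and 3. Here control sample 1 was the lowest control, so the probe sets of Tfap2b did not rank the controls alike. The difference was -0.15 (95% interval -0.64 to 0.34). With 1 sample left out it ran from -0.33 without mutant sample 2 to -0.05 without control sample 2, and it was -0.06 without mutant sample 1 or mutant sample 3. The log2 ratio of 1435670_at over 1423340_at reached 1.63 for control sample 1, while the remaining samples gave 0.79 to 1.28.

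Tfap2e, which encodes AP-2 epsilon, was dimmer and varied most within the groups. Its probe set 1435205_at gave 139, 263 and 121 in mutant samples 1, 2 and 3 and 230, 121 and 147 in control samples 1, 2 and 3. Mutant sample 2 and control sample 1 were high and the other 4 samples lay between 121 and 147. The difference was 0.04 with the widest interval of the tested members, -0.70 to 0.77. Its SD within groups, 0.47 on the log2 scale, was larger than that of 90.9% of all probe sets tested.

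Tfap2d, which encodes AP-2 delta and lies next to Tfap2b with no RefSeq gene between, gave signals below the level required for testing. That level was the median of all probe sets, about 114. Probe set 1425443_at gave 58.8, 50.5 and 104 in mutant samples 1, 2 and 3 and 42.0, 44.9 and 76.4 in control samples 1, 2 and 3. Sample 3 was the highest in each group, and the groups overlapped. In a fit without the filter its difference was 0.26 (95% interval -0.55 to 1.07).

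**Figure D2:**
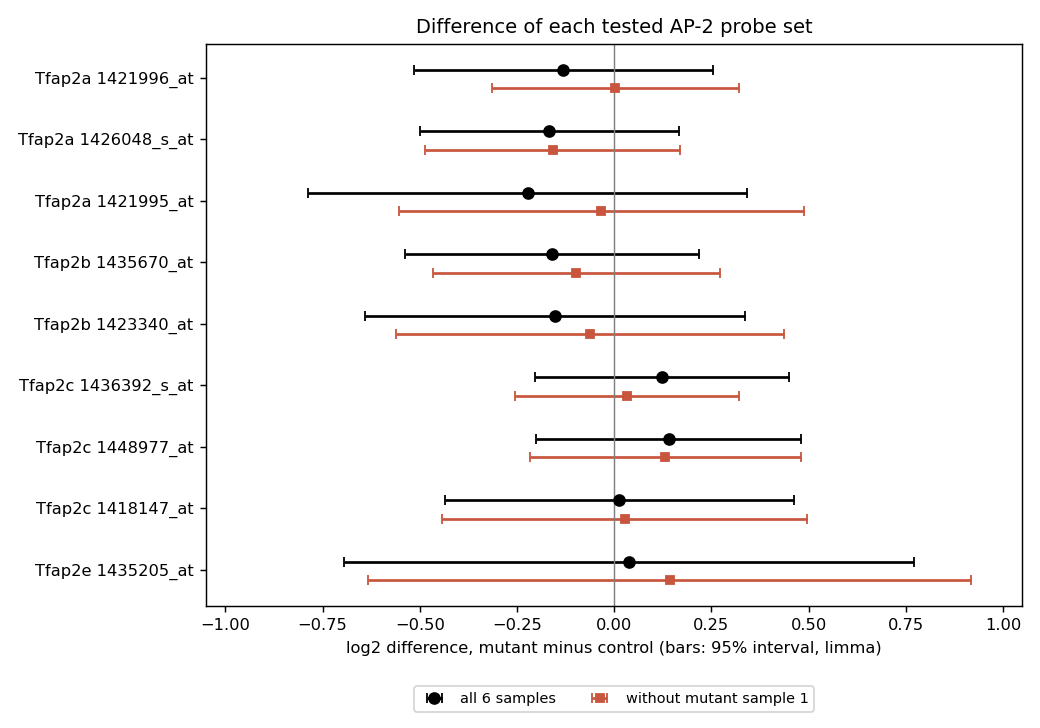
Log2 difference (mutant minus control) of the 9 AP-2 probe sets that passed the filter, with 95% intervals from limma, for all 6 samples (black circles) and without mutant sample 1 (red squares). Every interval includes 0, and the circles lie above 0 for Tfap2c and Tfap2e and below 0 for Tfap2a and Tfap2b.

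Over the family, 9 of 10 probe sets passed the filter and 0 of these passed an adjusted p of 0.05 in limma (adjusted p 0.9999 for each). Of all 22518 probe sets tested, 0.00444% passed. At an unadjusted p under 0.05 there were 0 AP-2 probe sets, against 3.42% of all (1.45% higher and 1.97% lower in mutant samples). The groups separated without overlap for 0 of the 10, against 8.33% of all tested (3.3% higher and 5.03% lower). The median difference of all probe sets tested was -0.02 on the log2 scale, and 44.4% of them were positive. Without mutant sample 1, 0 AP-2 probe sets and 0.173% of all probe sets passed. These intervals still leave room for changes of about the size of their bounds, so they do not show that the members were equal in both groups.

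The SD within groups was 0.14 and 0.12 for Tfap2c on 1436392_s_at and 1448977_at, against a median of 0.24 over all probe sets tested. It was 0.25 on 1418147_at, 0.14 to 0.34 for Tfap2a and 0.19 and 0.27 for Tfap2b. Of the Tfap2c probe sets, 2 of 3 thus varied less within groups than most, and the third did not. The same held for Tfap2a on 1421996_at (0.22) and 1426048_s_at (0.14) and for Tfap2b on 1435670_at (0.19). Signal level was not accounted for in this comparison.

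To ask whether the paralogs and Tfap2c moved apart, the brightest probe set of each gene was divided by that of Tfap2c within each array. The log2 ratio of Tfap2a to Tfap2c was -0.24, 0.55 and 0.31 in mutant samples 1, 2 and 3 and 0.37, 0.49 and 0.53 in control samples 1, 2 and 3. Mutant sample 1 was the 1 sample below 0. The group difference was -0.25 (exact permutation p 0.5, adjusted p 0.75 over 3 ratios). It was -0.03 without mutant sample 1 and -0.43 without mutant sample 2 (exact permutation p 0.1, the smallest possible).

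The ratio of Tfap2b to Tfap2c differed by -0.28 (exact permutation p 0.3, adjusted p 0.75). It was -0.18 without control sample 1 and -0.13 without mutant sample 1. The ratio of Tfap2e to Tfap2c differed by -0.09 (exact permutation p 0.9, adjusted p 0.9). In both cases the groups overlapped.

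**Figure D3:**
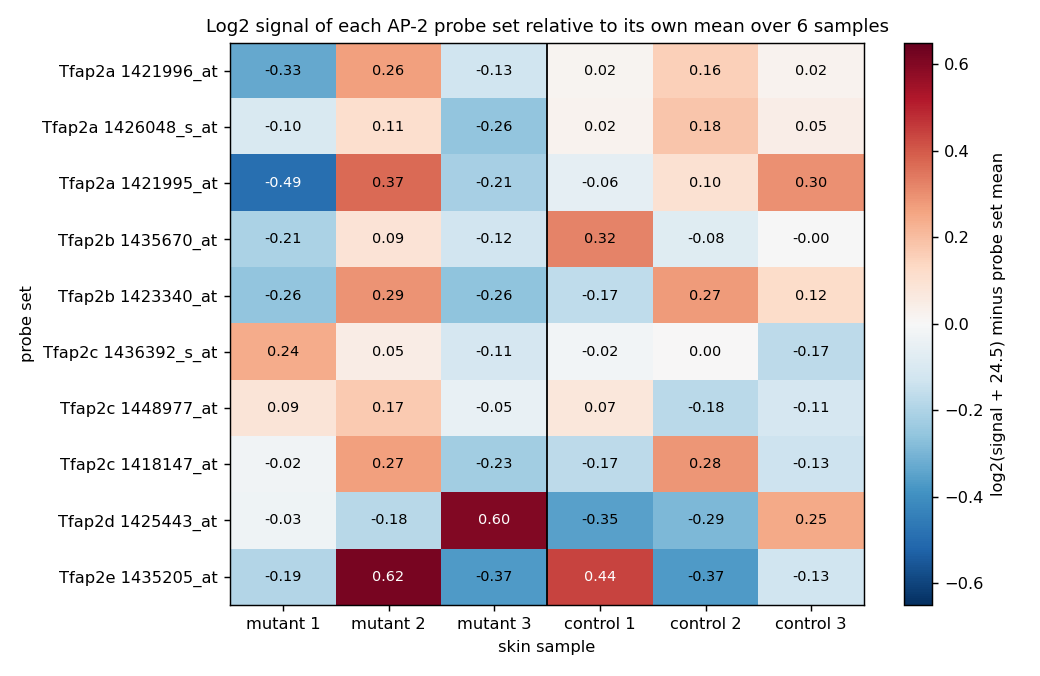
Log2 signal of the 10 AP-2 probe sets relative to each probe set's mean over the 6 samples, with samples in columns and the value printed in each cell. Mutant sample 1 is low for the Tfap2a and Tfap2b probe sets (-0.49 to -0.10) and high for Tfap2c 1436392_s_at (0.24).

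Across samples the members did not share a single profile. In mutant sample 2 the Tfap2a, Tfap2b, Tfap2c and Tfap2e probe sets were at or above their own means, by 0.05 to 0.62 on the log2 scale. In mutant sample 3 they were below them, by values from -0.37 to -0.05. In mutant sample 1 the Tfap2a and Tfap2b probe sets were below their means while 2 of the 3 Tfap2c probe sets were above. The keratinocyte marker sum was 112192, 160901 and 130032 in mutant samples 1, 2 and 3 and 151435, 120311 and 125934 in control samples 1, 2 and 3. Most of it came from the keratin genes Krt10 and Krt1, at 44371 and 31822 in mutant sample 1 and 55935 and 38243 in mutant sample 2. The keratin genes Krt5, Krt14 and Krt15 also entered, at 11821, 10490 and 5383 in mutant sample 1. In mutant sample 2 these were at 22130, 20085 and 14817. The dimmest marker, Itgb4, was at 150 and 296 in mutant samples 1 and 2 and hardly entered. The sum was lowest in mutant sample 1 and highest in mutant sample 2, as was Tfap2a on 1421996_at. Among the controls the orders on this probe set were reversed. Control sample 1 had the highest keratinocyte sum and the lowest Tfap2a signal, 1724 against 1731 in control sample 3. Control sample 2 had the lowest sum and the highest signal. On Tfap2a 1421995_at the highest control was instead control sample 3, at 304, so the reversal did not hold there in full. Fewer epidermal cells in a sample and less RNA per cell cannot be told apart in such bulk tissue.

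The genes nearest in profile were sought by the root mean square difference of centred log2 values over the 6 samples, among the brightest probe sets of 11588 other genes. For Tfap2c these were Pabpn1, a nuclear poly(A)-binding protein, at 0.028, the phosphatase gene Ptpn11 at 0.029, Emc6 at 0.030 and Haus1 at 0.035. For Tfap2a they were Wdr83 at 0.035, Trmt10a at 0.038, the desmosomal plakophilin gene Pkp1 at 0.039 and Nek6 at 0.041. For Tfap2b they were Srgap1, Rwdd2b, Scand1 and Fam53c, at 0.0465 to 0.0588, and for Tfap2e Tmem116, 9430038I01Rik, Mettl2 and Lpcat2, at 0.097 to 0.15. No AP-2 gene was nearer than 0.18 to another. With 6 samples and so many candidates the ranks are a description only.

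AP-2 proteins act with cofactors, and 14 of 16 listed cofactor and regulator genes were matched on the array. Of these 13 passed the filter and 0 passed the test in either direction, with 8 positive and 5 negative differences and a median of 0.02, against -0.02 over all probe sets tested. Cited2, a coactivator that links AP-2 to the acetyltransferases p300 and CBP, gave 4135, 2938 and 2997 in mutant samples 1, 2 and 3 and 2183, 2712 and 2225 in control samples 1, 2 and 3. Each mutant sample lay above each control sample, as for 3.3% of all probe sets tested. The difference of Cited2 was 0.48 (SE 0.17, limma adjusted p 0.9999), and 0.33 without mutant sample 1.

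The related coactivator gene Cited4 differed by 0.26 (SE 0.27), the histone demethylase gene Kdm5b by 0.14 (SE 0.17) and Kctd1, which encodes a repressor of AP-2 activity, by 0.17 (SE 0.20). The other AP-2 repressor listed, Kctd15, differed by -0.04. Ep300 and Crebbp, the acetyltransferase genes, differed by 0.13 and -0.01. Without mutant sample 1 the values were 0.59 for Cited4, 0.01 for Kdm5b, 0.31 for Kctd1 and -0.15 for Crebbp, and the sign turned for Kctd15 (0.09) and Ep300 (-0.05). The values of all these genes overlapped between groups.

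Of 20 genes listed as AP-2 targets from the literature on promoters and enhancers, 19 passed the filter and 0 passed the test. There were 11 positive and 8 negative differences, with a median of 0.02, which was -0.03 without mutant sample 2 and -0.02 without control sample 2. The epidermal targets Krt5 and Krt14, keratins of the basal layer, differed by -0.23 and -0.22, and by 0.0045 and 0.01 without mutant sample 1. Egfr, Erbb2 and Erbb3, receptors of the epidermal growth factor family, differed by 0.01, 0.08 and 0.16. Cebpa, a factor of keratinocyte differentiation, differed by -0.12 and Cdkn1a, a cell cycle inhibitor, by 0.06. Without mutant sample 1 Cebpa changed sign to 0.23, Erbb2 was at 0.25, Cdkn1a at 0.18, Erbb3 at 0.13 and Egfr at 0.03.

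In 3 of the 19 targets each mutant sample lay above each control sample, as for 3.3% of all probe sets tested. Krt8, a keratin of simple epithelia, gave 2644, 1280 and 1395 in mutant samples 1, 2 and 3 and 715, 811 and 645 in control samples 1, 2 and 3. Its difference was 1.19 (SE 0.26, limma adjusted p 0.571). Leaving out mutant sample 1 gave 0.87 with an adjusted p of 0.0698. Krt18, its partner keratin, gave 3253, 694 and 875 in mutant samples 1, 2 and 3 and 380, 349 and 484 in control samples 1, 2 and 3.

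Krt18 differed by 1.60 (SE 0.48, limma adjusted p 0.9999). Leaving out mutant sample 1 gave 0.92 with an adjusted p of 0.145. Both keratins were highest in mutant sample 1, the sample with the high decidua and uterus sum. Simple epithelia of uterus and trophoblast also make these keratins, and the part of such tissue in the remaining difference was not tested. Cdh1, the adhesion protein E-cadherin, differed by 0.29 (SE 0.12, limma adjusted p 0.9999), and by 0.36 without mutant sample 1. The gelatinase gene Mmp2 had the fourth smallest p of the list, with -0.21 (SE 0.14). The hormone receptor gene Esr1 read 2464 for mutant sample 1 and 141 to 347 for the rest, and its difference was 0.77, or -0.38 without mutant sample 1.

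The AP-2 consensus was searched in RefSeq promoter windows of GRCm38.p6, which run from 250 bases before to 50 after each transcription start. GCCNNNGGC reads the same on both strands, and each occurrence was counted once per window. It was present in 16.6% of all 32851 windows and in at least 1 window of 18.5% of genes. Windows were found for 4 AP-2 genes and 0 of these held it. Of 14 target genes with a window 7 held it, so these letters lay near the start of some listed targets and not of others. They were also held by 4 of 9 epidermal transcription factor genes and by 3 of 11 cofactor and regulator genes with a window. Whether the lists differ in this share was not tested. The matches that lie before a start are shown with up to 10 bases on each side, the consensus in capitals. They are matches of letters only, and whether AP-2 binds at them was not examined.
Krt18, chr15:102028123-102028151, plus strand: cgatcctggcGCCCCCGGCtccggtggct
Kit, chr5:75574843-75574871, plus strand: cagcccgagaGCCCCGGGCactaggcagc
Igfbp5, chr1:72874911-72874939, minus strand: ctggctggcaGCCAGGGGCcgtctattta
Mcam, chr9:44134527-44134555, plus strand: cagccagcgcGCCGGGGGCccgcccccta
Gpx1, chr9:108338950-108338978, plus strand: cgttgttattGCCAGAGGCcatcttccta
Esr1, chr10:4611809-4611837, plus strand: ttttttttcaGCCAGAGGCttgtccttct
Bcl2, chr1:106714517-106714540, minus strand: cccagGCCAGCGGCcgcggccggg
Of these genes Krt18 and Esr1 differed by 1.60 and 0.77, and by 0.92 and -0.38 without mutant sample 1. The receptor gene Kit, Gpx1, the adhesion gene Mcam, Bcl2 and Igfbp5 differed by 0.02, -0.03, -0.18, -0.14 and 0.17, and by -0.30, 0.06, -0.04, -0.04 and -0.02 without that sample. The windows of Krt8, Krt5 and Krt14 did not hold these letters.

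Of 16 epidermal transcription factor genes, 15 were matched and passed the filter and 0 passed the test. There were 8 positive and 7 negative differences, with a median of 0.09. This median was 0.23 without mutant sample 1, -0.11 without mutant sample 2 and -0.02 without control sample 3. Elf3, an epithelial ETS factor of differentiating cells, gave 285, 431 and 498 in mutant samples 1, 2 and 3 and 254, 215 and 240 in control samples 1, 2 and 3. All mutant samples lay above the controls, mutant sample 1 the least. The Elf3 difference was 0.69 (SE 0.22, limma adjusted p 0.9999). Leaving out mutant sample 1 gave 0.91 with an adjusted p of 0.145.

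Hopx, a homeodomain protein of the upper epidermis, differed by 0.55 (SE 0.20, limma adjusted p 0.9999), and by 0.72 without mutant sample 1. The grainyhead factors Grhl2 and Grhl3, regulators of barrier formation, differed by 0.32 (SE 0.22) and 0.31 (SE 0.23), and by 0.19 and 0.55 without mutant sample 1. With array weights Grhl2 was at -0.05. The values of both genes and of Hopx overlapped between groups. Trp63, a factor that stratified epithelia require, differed by -0.05 and Klf4 by 0.09, and without mutant sample 1 by 0.07 and 0.0075. In the trophoblast list, Elf5, an ETS factor known to act with AP-2 gamma in trophoblast and also made in epidermis, gave 319, 644 and 999 in mutant samples 1, 2 and 3 and 139, 332 and 163 in control samples 1, 2 and 3. Its difference was 1.48 (SE 0.41, limma adjusted p 0.9999). Leaving out mutant sample 1 gave 1.90 with an adjusted p of 0.0767. Mutant sample 1 lay just below control sample 2, so the groups overlapped.

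**Figure D4:**
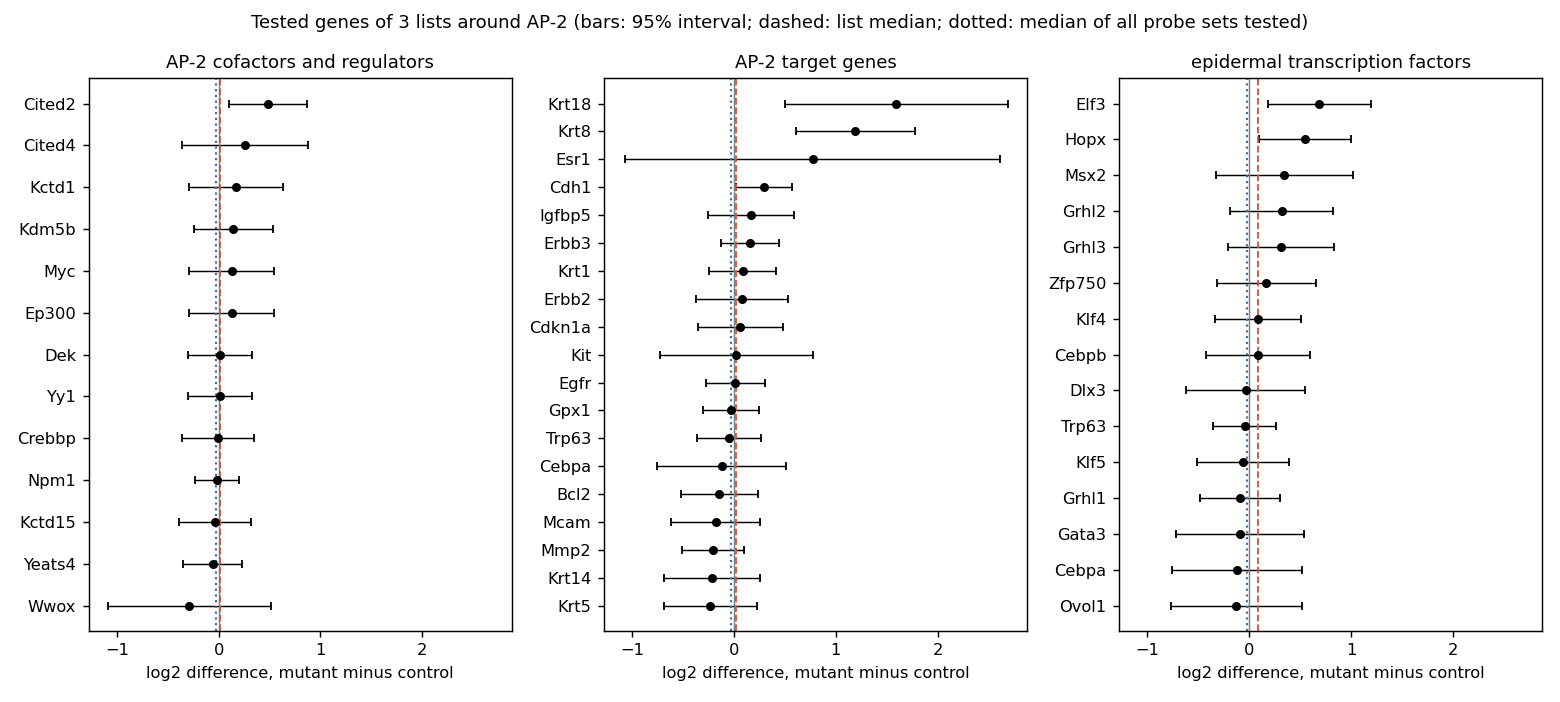
Log2 difference (mutant minus control) with its 95% interval from limma for each tested gene of the cofactor, target and epidermal transcription factor lists, with the list median dashed and the median of all probe sets tested (-0.02) dotted. Krt18 and Krt8 stand highest at 1.60 and 1.19, and the intervals are not adjusted for the number of genes.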

How the data were processed

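The authors deposited 1 MAS5 intensity per probe set and array on a linear scale, per the submitters' processing notes, which give no MAS5 version. Each array had a mean of 500 after trimming 2% at each end. Detection calls were not used here. The intensities were analysed as log2(signal + 24.5), with the 20th percentile of the deposited signals as pseudocount, which shrinks the differences of dim probe sets. The 64 Affymetrix controls were left out, and probe sets with a mean log2 above the median were tested (22518). Differences were fitted with limma 3.58.1 in R 4.3.3 (lmFit, eBayes with trend, two-sided, Benjamini-Hochberg over all probe sets tested, threshold 0.05). The fit was also run on simulated data with independent normal noise and no outlying array. That run does not cover a sample such as mutant sample 1.

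Symbols came from the platform annotation in GEO, checked by gene identifier against RefSeq (GRCm38.p6), which changed 0 of 34754 symbols. For list genes the probe set of highest mean log2 was taken. Probe set ratios were compared by exact two-sided permutation over samples, adjusted over 7 pairs within genes and 3 between genes. The family, the lists and the marker genes were chosen with earlier results of these data known. Named were all AP-2 probe sets, the 4 genes with the smallest p in each list, the 4 nearest profiles, and marker genes and Xist. Other list genes and Eif2s3y were named after their values were seen. The number of arrays limits the precision. Figures were drawn with matplotlib 3.10.9.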

Additional observations from a re-analysis of the deposited data

How the results depend on the processing

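Under 16 other settings, 0 of 138 values of AP-2 probe sets passed the threshold, and 10 had the other sign, for reasons that were not tested. The settings were other pseudocounts (8 and 64), other filters, quantile normalization, median centring, no variance trend, array weights, the replicate number as a block, each sample left out, and no _s_at, _x_at or _a_at probe sets. With array weights, which gave mutant samples 1, 2 and 3 weights of 0.257, 0.56 and 3.13, Tfap2c on 1436392_s_at was at -0.0051, 1418147_at at -0.14 and Tfap2e at -0.20. Then 106 probe sets passed (47 higher, 59 lower), with 1 target (Krt8, 0.96, adjusted p 0.0287) and 1 epidermal factor (Elf3, 0.93, adjusted p 0.0418) among them. With the filter at the upper quartile, which leaves out Sftpd, the 1 probe set called with all samples, 0 passed (0 higher). With the replicate block 8 passed, all 8 higher, and it changed no call of an AP-2 probe set (Tfap2c 1436392_s_at 0.12, adjusted p 0.9999). Same-numbered samples deviated from their group means with correlations of -0.05, -0.07 and 0.11. The labels give no litter, and such values cannot tell whether same-numbered samples share more than a number.

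With 1 sample left out, 1 to 39 probe sets passed (1 to 25 higher, 0 to 14 lower). Leaving out mutant sample 1 gave the 39, and leaving out control sample 2 gave 3. The differences then ran from -0.30 to 0.0031 for Tfap2a 1421996_at, from -0.26 to -0.08 for 1426048_s_at and from -0.46 to -0.03 for 1421995_at. They ran from -0.33 to -0.05 for Tfap2b 1423340_at, from -0.12 to 0.16 for Tfap2c 1418147_at and from -0.26 to 0.27 for Tfap2e. The ratios ran from -0.033 to 0.16 for Tfap2a 1421996_at over 1426048_s_at, -0.022 to 0.17 over 1421995_at, and -0.13 to 0.20 for 1426048_s_at over 1421995_at. They ran from -0.19 to 0.23 within Tfap2b, -0.099 to 0.068 for Tfap2c 1436392_s_at over 1448977_at, -0.0041 to 0.25 over 1418147_at, -0.072 to 0.28 for 1448977_at over 1418147_at, -0.43 to -0.03 for Tfap2a over Tfap2c, -0.39 to -0.13 for Tfap2b over Tfap2c, and -0.39 to 0.12 for Tfap2e over Tfap2c.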
